A study of Mus musculus with 10 samples.

Results

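Broad Suz12 domains were the Suz12 sites at least 4000 bp wide in the list of Suz12 binding in scramble shRNA cells. They were chosen by their measured width alone, and 340 of 8876 Suz12 sites (3.83%) met this rule. They held 15.5% of all bases in Suz12 sites, 2005450 of 12908200 bp. The sites came from ChIP-seq of mouse embryonic stem cells (ESCs) with FlagM2 antibody against a Suz12 allele carrying a tandem affinity purification (TAP) tag. The members were found in 1 library from Suz12 Suz12TAP/+ ESCs expressing scramble shRNA, set against 1 library of input DNA from the same cells. Suz12 and H3K27me3 were also measured in Suz12 Suz12TAP/+ ESCs expressing Pcl3 shRNA, with 1 library each, so every Suz12 and H3K27me3 library came from the tagged line. Pcl3-TAP was measured in 2 libraries from E14 ESCs, 1 labelled Pcl3-TAP and Pcl3-wildtype-shRNA6 and 1 Pcl3-TAP and Pcl3-wildtype-shRNA7. The hairpins do not recognise the TAP-tagged Pcl3, and both libraries gave 1 common list. The authors used FlagM2 against Pcl3-TAP in ChIP followed by PCR. If it also served for these libraries, the Suz12 and Pcl3 lists share an antibody, and its part in their overlap was not tested. The tagged line was established from BayGenomics gene trap line XG122, and shRNA lines were picked clones after lentiviral infection, so a difference between shRNAs and a difference between clones cannot be told apart. No condition except Pcl3-TAP had more than 1 library, so all intervals below are 95% intervals over sites of the same libraries. They cover counting error over sites and not the variation between cultures, and no test was made.

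Suz12 is a core subunit of Polycomb repressive complex 2 (PRC2), which trimethylates lysine 27 of histone H3 (H3K27me3) and keeps developmental regulators silent in ESCs. PRC2 in mammals gathers at CpG-rich promoters, and the widest stretches of Polycomb chromatin are known at homeobox and other patterning genes. Pcl3 (also Phf19) is a Polycomb-like protein that associates with PRC2. An H3K27me3-depleted site is a stretch where H3K27me3 reads were fewer with Pcl3 shRNA than with scramble shRNA, and a Suz12-depleted site is the same for Suz12. A list of such sites records a loss and not how much H3K27me3 was there before it.

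Example sequences from the domains are shown first. They are given from the plus strand of mm9, with CpG dinucleotides in capitals. The first 3 are the 200 bp at the center of H3K27me3-depleted sites with some of the smallest p-values in domains, outside annotated UTRs. They lie at chr11:103632701-103632900 (upstream of Wnt3, 4 CpG), chr11:74980276-74980475 (coding exon of Hic1, 21 CpG) and chr8:72409626-72409825 (intron of Cilp2, 5 CpG). The Wnt3 and Hic1 stretches lie wholly on Pcl3 sites and the Cilp2 stretch on none.
Wnt3 depleted center: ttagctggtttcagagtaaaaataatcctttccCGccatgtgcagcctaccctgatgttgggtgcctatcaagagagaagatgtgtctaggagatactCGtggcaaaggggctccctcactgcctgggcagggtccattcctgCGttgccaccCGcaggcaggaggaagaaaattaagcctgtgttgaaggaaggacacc
Hic1 depleted center: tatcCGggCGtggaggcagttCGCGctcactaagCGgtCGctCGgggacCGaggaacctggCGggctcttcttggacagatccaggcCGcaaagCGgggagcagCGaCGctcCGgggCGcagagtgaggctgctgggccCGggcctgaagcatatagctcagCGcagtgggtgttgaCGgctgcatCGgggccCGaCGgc
Cilp2 depleted center: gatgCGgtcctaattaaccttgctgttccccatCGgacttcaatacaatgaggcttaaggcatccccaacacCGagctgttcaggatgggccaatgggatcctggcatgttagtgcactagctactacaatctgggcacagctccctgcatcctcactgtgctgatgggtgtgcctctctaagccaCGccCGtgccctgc

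The other 4 are the 200 bp with most CpG outside annotated UTRs, in the 2 widest domains with at least 90% of bases on Pcl3 sites and in the 2 widest domains with no base on a Pcl3 site. They were picked for their high CpG count, so they cannot be used to compare CpG between the 2 kinds. They lie at chr11:85646671-85646870 (coding exon of Tbx2, 34 CpG), chr4:139377391-139377590 (intron of Pax7, 31 CpG), chr2:127952221-127952420 (intron of Bcl2l11, 30 CpG) and chr19:53388161-53388360 (intron of Mxi1, 33 CpG).
Tbx2, Pcl3-covered: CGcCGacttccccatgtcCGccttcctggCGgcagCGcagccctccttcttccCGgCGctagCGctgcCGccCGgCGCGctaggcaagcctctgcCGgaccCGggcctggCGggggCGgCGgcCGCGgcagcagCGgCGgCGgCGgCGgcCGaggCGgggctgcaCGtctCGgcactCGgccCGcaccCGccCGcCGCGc
Pax7, Pcl3-covered: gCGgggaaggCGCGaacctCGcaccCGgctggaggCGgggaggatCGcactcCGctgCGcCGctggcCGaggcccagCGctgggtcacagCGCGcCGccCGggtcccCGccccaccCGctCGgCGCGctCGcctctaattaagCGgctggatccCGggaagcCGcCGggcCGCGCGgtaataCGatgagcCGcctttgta
Bcl2l11, no Pcl3: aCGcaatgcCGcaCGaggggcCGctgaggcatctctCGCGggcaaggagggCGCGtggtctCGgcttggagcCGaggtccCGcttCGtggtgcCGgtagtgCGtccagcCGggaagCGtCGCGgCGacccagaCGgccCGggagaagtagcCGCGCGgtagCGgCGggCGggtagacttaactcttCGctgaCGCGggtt
Mxi1, no Pcl3: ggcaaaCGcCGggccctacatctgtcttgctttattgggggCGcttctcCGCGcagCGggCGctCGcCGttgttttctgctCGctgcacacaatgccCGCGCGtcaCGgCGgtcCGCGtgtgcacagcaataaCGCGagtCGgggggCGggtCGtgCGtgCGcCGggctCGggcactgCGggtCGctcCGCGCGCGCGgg

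The domains ranged up to 16950 bp, with a median of 5100 bp and quartiles of 4400 and 6625 bp. The widest lay over Tbx2, a T-box repressor of heart and limb development, at chr11:85641901-85658850. It was followed by the domains of Pax7, a paired-box factor of neural crest and muscle precursors (14700 bp), Hmx1, a homeobox factor of eye and ear (14350 bp), and Otx1, a homeobox factor of the forebrain (12750 bp). Skor1, a transcriptional corepressor of the spinal cord, had 12600 bp. A domain of 12200 bp inside Nkx2-2, a homeobox factor of the ventral neural tube, held no annotated protein-coding gene start. Cbx8, which encodes a chromobox subunit of Polycomb repressive complex 1, lay on chromosome 11 under a domain of 12000 bp. Tcfap2a (AP-2 alpha, a neural crest factor) had 12000 bp, Tbx1 (a T-box factor of the pharyngeal arches) 11950 bp and Dmrta2 (a DM-domain factor of the cortex) 11800 bp. The domain over Hoxb8 and Hoxb7 had 11700 bp. At the threshold, 9 domains were exactly 4000 bp wide, among them those of Gm1568 and Prrxl1, with 91.2% and 77.5% of bases on Pcl3 sites. Just outside it were 12 sites of 3950 bp, among them those of Pax3, Bcl11a and Adamts2, with 100%, 74.7% and 64.6%. These 5 were in the Suz12-depleted list and none of them held an H3K27me3-depleted site.

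**Figure D1:**
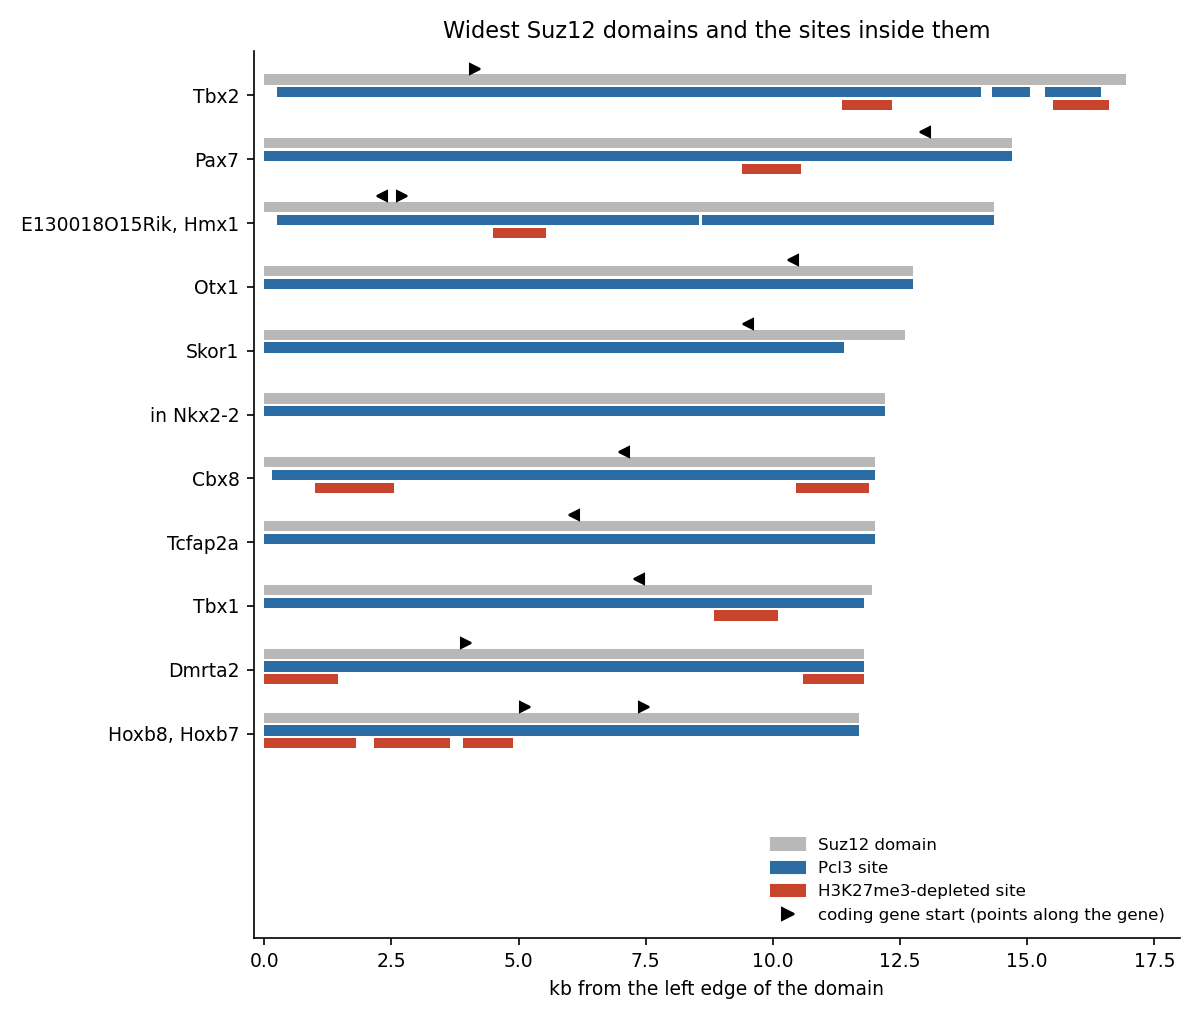
Widest Suz12 domains (11 of the first 12) drawn to scale from their left edge in kb, with Pcl3 sites in blue, H3K27me3-depleted sites in red and coding gene starts as triangles. Pcl3 sites span nearly the whole of each domain, whereas the H3K27me3-depleted sites are short stretches, and 4 of the 11 domains have none.

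Wide sites were also the strongest by p-value, which comes from the same comparison as the width and is therefore only described. The p-value was written as 0, below the range of the number format, at 286 of 340 domains (84.1%), and these made up 65.7% of the 435 Suz12 sites so written. At the other 54 domains it ran from 9.36e-308 to 6.82e-124. The width depends on how windows were joined. Another Suz12 site lay less than 1000 bp from the edge of 170 domains (50%) and less than 200 bp from 77 (22.6%). With Suz12 sites under 1000 bp apart joined, 500 stretches reached 4000 bp, and the widest was 50500 bp across Hoxa3 to Hoxa11, made of 13 sites. The Hoxb9 to Hoxb5 stretch followed with 39250 bp, made of 9 sites.

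A protein-coding gene start lay in 258 domains, or 75.9% (71.1% to 80.1%), against 44.1% of all Suz12 sites. A wide site is a larger target, and the share rose with width throughout, from 27% of the sites of 400 to under 1000 bp to 87.5% of the 112 domains of 6000 bp or more. Exactly 1 start lay in 241 domains and 2 starts in 17, and none held 3 or more. Of the 82 domains with no coding gene start, 59 lay inside or across a coding gene, 6 held the start of a gene of another type, and 17 lay between genes. Some of these 82 held the start of another coding transcript, since 292 domains (85.9%) held a start when any coding transcript was counted. Homeobox genes again held several of the widest, with 10550 bp in Uncx, 9300 bp in Lmx1b and 8850 bp in Lhx2. Mir124a-3, a gene of a neuronal microRNA, lay under a domain of 5300 bp. The domains extended further into the gene than upstream of it. Around a single start they reached a median of 1842 bp upstream and 3415 bp downstream, and 72.2% of the 241 were longer downstream. Sites of 2000 to under 4000 bp had the same lean, with 754 and 1751 bp and 85.5% of 927 longer downstream.

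Many of the genes were transcription factors of development. Of 22225 protein-coding genes, 275 had their start in a broad domain (1.24%) and 18.2% in any Suz12 site. The corresponding shares in 9 groups of developmental transcription factors were 139 of 347 genes (40.1%) and 286 of 347 (82.4%). These groups accounted for 137 of the 258 domains with a coding start (53.1%). Gene groups are described by their counts, since the groups were chosen with results of these data known.

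Homeobox genes outside the Hox clusters, which pattern tissues, had 70 of 127 starts in broad domains (55.1%, 46.4% to 63.5%). Examples were Hmx1, Otx1, Lhx1 (11500 bp) and Lhx5 (10900 bp), the last pair LIM-homeobox factors of the kidney and forebrain. Hox genes, which set position along the body axis, had 37 of 39 starts in a Suz12 site and 16 in a broad domain (41.0%, 27.1% to 56.6%), as at Hoxb5 (10800 bp) and Hoxc9 (10550 bp). All 15 of these Hox domains were covered by Pcl3 sites over 100% of their bases. Pax genes had 6 of 9 in broad domains, in descending width Pax7, Pax9 (10400 bp), Pax2 (8250 bp), Pax1 (8100 bp), Pax6 and Pax5 (4550 bp each). The group labelled zinc finger also took in the AP-2 (Tcfap2) and Ebf genes, which are not classical zinc finger genes. It had 23 of 48 (47.9%, 34.5% to 61.7%), led by Tcfap2a, Ebf3 (11600 bp) and Prdm16 (10200 bp).

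The other transcription factor groups held smaller shares. Forkhead genes had 10 of 43, with Foxf1a (7700 bp) and Foxb2 (7350 bp) the widest. T-box genes had 4 of 17, namely Tbx2, Tbx1, Tbx3 (6250 bp) and Eomes (5450 bp). Basic helix-loop-helix lineage genes had 6 of 40, led by Olig2 (10500 bp), an oligodendrocyte and motor neuron factor, and Hand1 (7400 bp), a heart and trophoblast factor. Gata genes had 2 of 6, Gata2 (8650 bp) and Gata6 (8250 bp). Sox genes had 2 of 18, Sox9 (5500 bp) and Sox3 (4450 bp), although 14 of 18 had their start in some Suz12 site. In all groups a gene counts only by its annotated gene start. Broad domains at other genes of the groups, such as Gata4 (5200 bp) and Sox14 (5400 bp), held no coding gene start and are not counted. Group shares by the starts of other coding transcripts were not computed.

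Genes of secreted signals also lay under broad domains. Wnt ligands had 6 of 19 starts in broad domains, with Wnt7b (8000 bp), Wnt11 (5850 bp) and Wnt3 (5750 bp) the widest. Hedgehog ligands and receptors had 2 of 7, and both were ligands, Shh (9850 bp) and Ihh (5200 bp). The BMP and TGF-beta family had 4 of 32, Gdf7, Gdf6, Inhbb and Bmp7, and Fgf ligands had 2 of 22, Fgf9 (6950 bp) and Fgf11 (5600 bp). Starts of potassium channel and collagen genes lay in some Suz12 site at 61.7% of 94 and 45.5% of 44 genes, but in a broad domain at 2 (2.13%, 0.585% to 7.43%) and 1 gene (2.27%, 0.402% to 11.8%), respectively. These were Kcnk9, Kcnh3 and Col2a1, and both shares lie near the 1.24% of all coding genes. None of 82 ribosomal protein genes and none of 10 pluripotency genes, among them Pou5f1 and Nanog, had their start in a broad domain, which with 1.24% of all coding genes is near the background. In any Suz12 site there was 1 start of each, Rpl13a and Fgf4, against 18.2% of all coding genes. The lists hold no expression values, so the labelled cell type was not checked against expressed markers.

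The group shares depend on the width threshold. At 3000 bp they were 76.9% for Hox, 33.3% for Sox, 35% for basic helix-loop-helix, 52.6% for Wnt, 22.7% for Fgf, 21.9% for BMP and TGF-beta, 8.51% for potassium channel and 13.6% for collagen genes, against 2.47% of all coding genes.

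**Figure D2:**
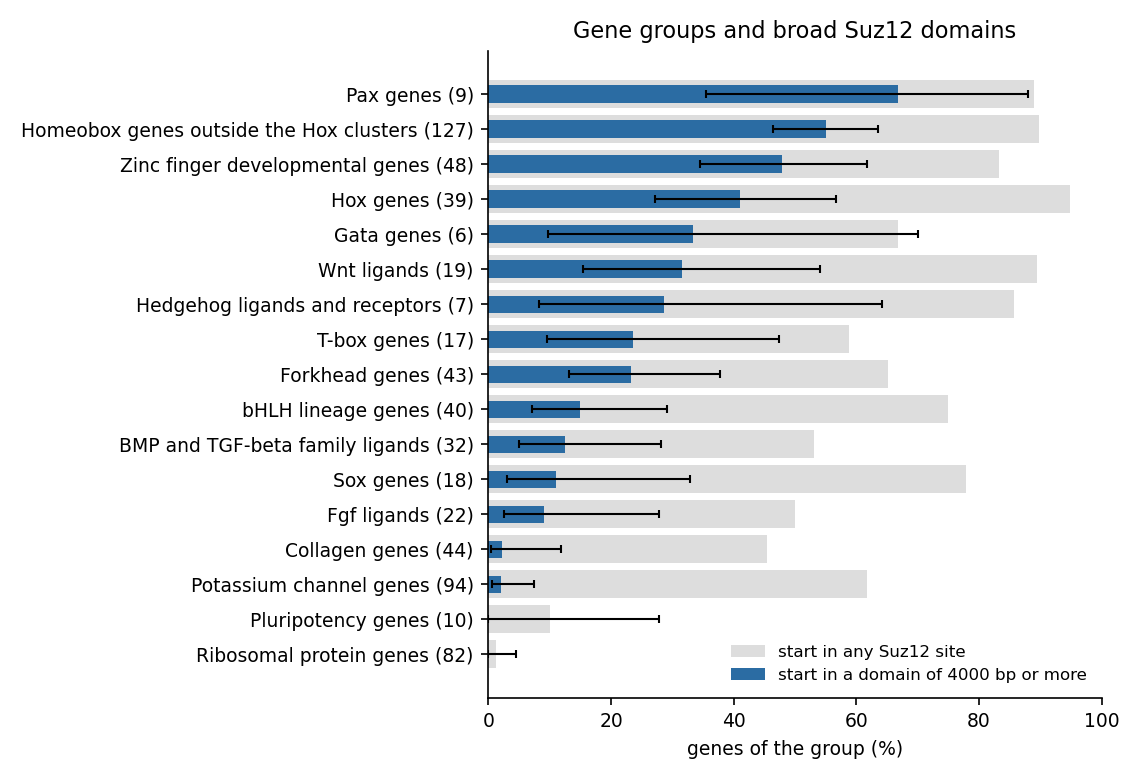
Share of the genes of each group, in percent, whose start lies in any Suz12 site (grey) or in a domain of 4000 bp or more (blue, with 95% Wilson intervals), with the number of genes in brackets. Pax, other homeobox, zinc finger and Hox genes lead, while potassium channel and collagen genes have long grey bars and almost no blue.

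Some broad domains lay in runs along the chromosomes. Within 20000 bp of each other lay 77 domains in 32 runs, of which 24 were pairs and 8 held 3 or more. The run with most domains held 6 in 61950 bp of the HoxA cluster, and runs in the HoxC and HoxB clusters held 4 each in 68050 and 52150 bp. The run of Evx2, Hoxd11 and Hoxd9 held 3. Each of these 17 Hox-cluster domains was fully covered by Pcl3 sites. Outside the Hox clusters, 3 domains each lay at Cbx8, Nfix, Barhl2 and around Wnt10b and Wnt1.

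Pcl3 sites covered 89.0% of the bases of broad domains, against 48.8% of the bases of all Suz12 sites. At least 1 base was shared with a Pcl3 site at 336 of 340 domains, or 98.8% (97.0% to 99.5%), against 44.3% of all Suz12 sites. The median coverage of a domain was 96.9% (95% to 98.9%), with quartiles of 82.4% and 100%. Per base, coverage rose in every width class, from 13.7% at 400 to under 1000 bp and 36.1% at 1000 to under 2000 bp to 65.5% at 2000 to under 4000 bp, 85.1% at 4000 to under 6000 bp and 93.5% above that. The outer 500 bp on each side, where coverage was lower, make up less of a wider site, and their part in this rise was not tested. Strength of the Suz12 site moved with it. Among sites with a p-value written as 0, the 149 narrower ones had a median coverage of 94.9% (91.4% to 97.9%) and the 286 broad ones of 98.9% (96.6% to 100%), and every one of both shared bases with a Pcl3 site. The part of width apart from strength was not tested.

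**Figure D3:**
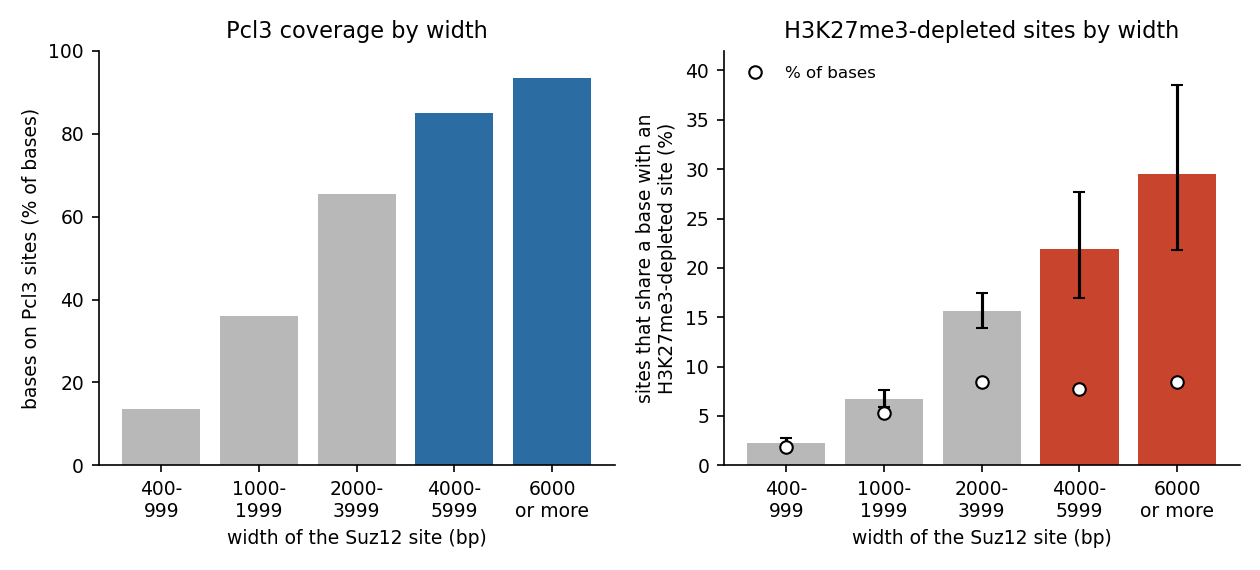
Left, share of bases on Pcl3 sites (percent) by width class of the Suz12 site. Right, share of Suz12 sites that share a base with an H3K27me3-depleted site (bars, 95% Wilson intervals) and share of bases in such sites (open circles). Pcl3 coverage climbs through all classes, from 13.7% to 93.5%, whereas the share of H3K27me3-depleted bases levels off at 2000 bp.

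Many domains lay on Pcl3 sites over their whole width. Every base was covered at 140 domains (41.2%), among them Pax7, Otx1, the domain inside Nkx2-2, Tcfap2a, Dmrta2 and Hoxb8/Hoxb7, 6 of the 12 widest. Each of the 140 was spanned by 1 Pcl3 site, which follows largely from the authors' merging of overlapping windows. At least 90% of bases were covered at 221 domains (65%). The domain of Tbx2 was covered over 92.6% of its bases by 3 Pcl3 sites. Most domains (249, 73.2%) met exactly 1 Pcl3 site. The 435 Pcl3 sites on domains had a median width of 4150 bp, against 850 bp over all 5242 Pcl3 sites. Uncovered bases gathered at the edges. The outer 500 bp on each side made up 17.0% of domain bases and 41.7% of uncovered bases. Coverage was 75.6% and 77.4% in the outermost 10% of the width on either side and between 92.6% and 93.8% from 20% to 80% of it. Pcl3 sites also ran beyond the domains, covering 42.6% of the first 500 bp outside and 24.1% at 4500 to 5000 bp. Other Suz12 sites covered 13.8% and 20.8% of the same flanks.

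A few domains departed from this. Coverage was under 50% at 21 domains and under 20% at 7. No base lay on a Pcl3 site at 4 domains. These were Bcl2l11 (chr2:127948451-127953250, a proapoptotic BH3-only gene), Mxi1 (chr19:53384601-53388750, a Myc antagonist), a stretch inside Plec (chr15:76008651-76012750, a cytoskeletal linker) and Dusp4 (chr8:35869601-35873600, a MAP kinase phosphatase). Their Suz12 p-values were 6.67e-151, 8.05e-231, 3.92e-252 and 4.33e-272. They were thus among the 54 domains with a p-value not written as 0, and they were at most 4800 bp wide. The next were Pdgfa with its neighbour 6330403L08Rik (6.98%), Cilp2 (9.68%) and Tbc1d24 with Ntn3 (13.3%). The widest poorly covered domain was that of Tnrc18 on chromosome 5, with 29.9% of 11200 bp and an uncovered run of 6500 bp. Among the gene groups, median coverage was 63.9% over the 4 domains of the BMP and TGF-beta family (Bmp7 51.8%, Gdf7 58.7%, Inhbb 69.0%, Gdf6 86.2%) and 100% over the 70 of homeobox genes outside the Hox clusters.

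CpG density was lower in broad domains than in sites of 2000 to under 4000 bp, but low density was not particular to them. The narrowest sites, of 400 to under 1000 bp, had a median of 5.11 CpG per 100 bp (5 to 5.25). Domains of 4000 to under 6000 bp had 5.09 (4.86 to 5.27). Broad domains had a median of 4.90 CpG per 100 bp (4.78 to 5.06), sites of 2000 to under 4000 bp 5.66 (5.53 to 5.76) and all Suz12 sites 5.41 (5.35 to 5.47). Inside the domains density was 2.80 and 2.83 in the outermost 10% of the width on either side and between 4.93 and 5.83 elsewhere, without the central peak of 7.94 seen in sites of 2000 to under 4000 bp. Pcl3 coverage was high at every density, with 84.5% of bases in 500 bp windows of under 2 CpG per 100 bp and 92.4% in windows of at least 8. Across the 340 domains, coverage and CpG density had a Spearman rho of -0.304, and width and coverage one of 0.287, both given as descriptions of sites that share their libraries. The string GCGCGC, which reads the same on both strands, occurred in the central 500 bp of 22.6% of the domains (18.5% to 27.4%). It occurred in the same window of 44.5% of the sites of 2000 to under 4000 bp and 37.5% of all Suz12 sites. The share was 29.0% in sites of 400 to under 1000 bp and 27.2% in domains of 4000 to under 6000 bp. The presence of a string is no evidence of a binding site.

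All 340 broad domains were in the Suz12-depleted list (100%, 98.9% to 100%), as were 64.5% of all Suz12 sites and 99.3% of the sites of 2000 to under 4000 bp. The share was 29.5% at 400 to under 1000 bp and 88.7% at 1000 to under 2000 bp, so it rose with width. The authors reported less Suz12 mRNA and protein with Pcl3 shRNA. They also raised that changes may be harder to detect at less significant peaks. The part of either in these shares was not tested. The Suz12-depleted list shares the scramble Suz12 library with the list that chose the members, and it carries the p-values of binding and not of the loss. No order among the domains could therefore be read from it.

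H3K27me3-depleted sites were found at fewer domains. Bases were shared with such a site at 83 of 340 domains, or 24.4% (20.1% to 29.2%), against 6.89% of all Suz12 sites and 15.6% (13.9% to 17.5%) of the sites of 2000 to under 4000 bp. Per base the values lay closer together, with 8.05% of the bases of broad domains, 8.41% of those of sites of 2000 to under 4000 bp and 5.99% of those of all Suz12 sites. The part of width in the share of domains was not tested. The 149 narrower sites with a p-value written as 0 reached 19.5% (13.9% to 26.6%), and the 286 broad ones 23.8% (19.2% to 29.0%). Median Pcl3 coverage was 91.6% (88.0% to 97.9%) at domains with such a site and 98.0% (96.0% to 99.5%) at those without.

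Chromosome 11 stood apart in this list. It held 29.2% of all 678 H3K27me3-depleted sites and 38 of the 110 that touched a domain, but 31 of 340 domains (9.12%). Of its domains 20 of 31 (64.5%, 46.9% to 78.9%) shared bases with an H3K27me3-depleted site, against 20.4% (16.3% to 25.2%) elsewhere. Per base the values were 28.2% and 5.56%. The narrower Suz12 sites showed the same split, with 16.4% of bases on chromosome 11 and 4.45% elsewhere. Pcl3 sites covered 86.9% of domain bases on chromosome 11 and 89.3% elsewhere. The other chromosomes ranged from 0 of 6 domains on chromosome 3 and 0 of 5 on chromosome X to 6 of 8 on chromosome 16. The lists hold no read counts, so whether the scramble and Pcl3 shRNA clones differed in copy number of chromosome 11 was not tested, and the main results on these sites are given with and without it.

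The sites themselves were short against the domains, with a median width of 1400 bp, and 90 of 111 pairs of a site and a domain had the site wholly inside. One H3K27me3-depleted site met 2 neighbouring domains at Cbx8, so that 110 sites made 111 pairs. Most domains held 1 site (59 of 83), 22 held 2, the domain of Hoxb8 and Hoxb7 held 3, and that of Lhx1 held 5. Their p-values were at most 6.13e-07, with a median of 2.13e-09, against 4.34e-09 for the other 568 H3K27me3-depleted sites.

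Among the domains with the smallest p-values were 10 described here. At Sphk1, which encodes a sphingosine kinase, the site (p-value 2.50e-25) covered 93.8% of the domain and its gene start. At Wnt3, a ligand of gastrulation, the sites with p-values of 1.46e-20 and 3.82e-16 had their centers at 20% and 70.9% of the width and together covered 80% of the domain. The next were Hic1, a zinc finger tumour suppressor (2.67e-20), Cilp2, a cartilage matrix gene (2.11e-19), Hand1 (7.07e-17), Comp, a cartilage matrix gene (2.46e-16), Dusp4 (3.86e-16), Wnt7b (1.85e-15), Scarf2, a scavenger receptor gene (2.07e-15), and Nptx1, a neuronal pentraxin (8.79e-15). Of these 10 domains 5 lay on chromosome 11, namely Sphk1, Wnt3, Hic1, Hand1 and Nptx1. Cilp2 and Dusp4 were among the 7 domains with the lowest Pcl3 coverage, and their H3K27me3-depleted sites lay on no Pcl3 base.

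By gene group, such a site was found at 4 of 4 T-box domains, 4 of 6 Wnt domains, 3 of 6 basic helix-loop-helix domains, 5 of 15 Hox domains, 2 of 6 Pax domains and 14 of 70 other homeobox domains, against 24.4% of all broad domains. It was found at 3 of 22 zinc finger domains, 1 of 2 Sox, Hedgehog and potassium channel domains each, 0 of 10 Forkhead, 0 of 4 BMP and TGF-beta, 0 of 2 Gata, 0 of 2 Fgf domains and not at the collagen domain. Without chromosome 11 the counts were 3 of 3 T-box, 3 of 5 Wnt, 1 of 4 basic helix-loop-helix, 2 of 11 Hox, 12 of 67 other homeobox and 0 of 1 Sox domains, against 20.4% of all broad domains there. The group counts are small and were not tested.

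H3K27me3-depleted bases were spread over the domains and did not gather at their centers. The central 50% of the width held 51.2% of them (54.4% without chromosome 11), and with the centers of the sites in place of their bases 52.3% (43.0% to 61.4%). In bins of 10% of the width, coverage was 6.12% at the left edge, rose to 10.6% between 30% and 40%, fell to 6.02% between 50% and 60%, rose to 8.78% between 70% and 80% and ended at 6.06%. Without chromosome 11 the corresponding values were 3.08%, 7.85%, 4.69%, 5.74% and 3.8%. Sites of 2000 to under 4000 bp had instead a single central peak of 11.5%, from 4.71% and 4.48% at their edges. Outside the domains H3K27me3-depleted sites covered 2.03% of the first 500 bp.

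**Figure D4:**
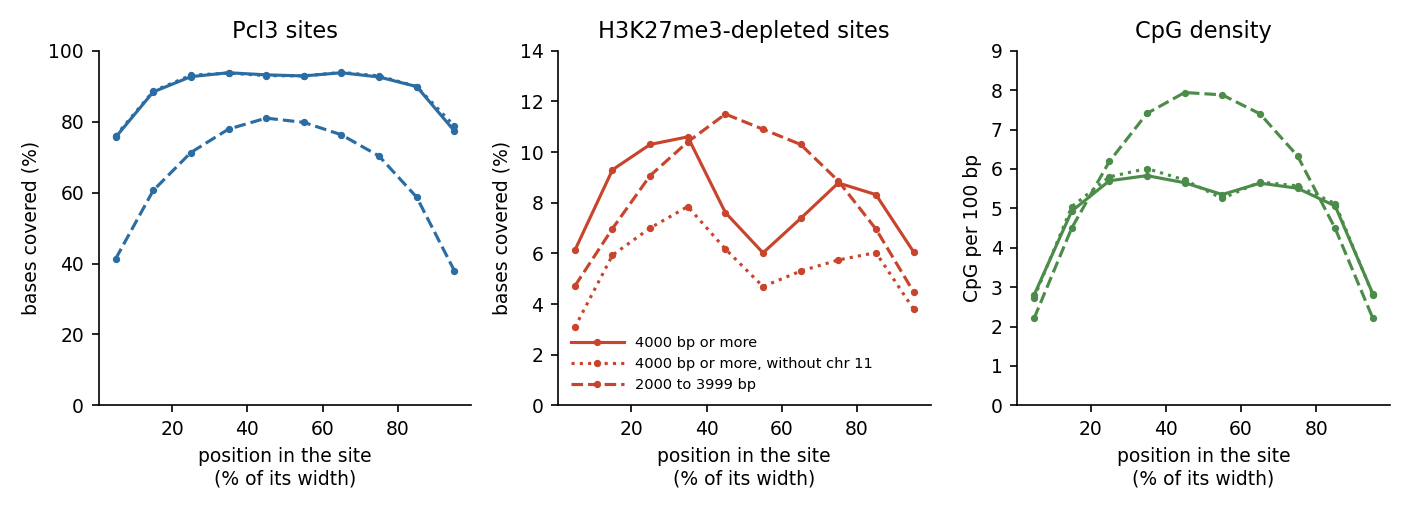
Share of bases covered by Pcl3 sites (left) and H3K27me3-depleted sites (middle), in percent, and CpG per 100 bp (right) over bins of 10% of the width of the site, for domains of 4000 bp or more (solid), the same without chromosome 11 (dotted) and sites of 2000 to under 4000 bp (dashed). The H3K27me3-depleted line of the domains has shoulders on both sides of a dip at 50% to 60%, and the dashed line peaks at the center.

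Few gene starts themselves lay in H3K27me3-depleted sites. This held for 6 of 275 coding starts in broad domains, or 2.18% (1.00% to 4.68%). Pcl3 sites held 247 of them, or 89.8% (85.7% to 92.9%). Among the 6 in H3K27me3-depleted sites were the starts of Sphk1, Wnt3, Dusp4, Nptx1 and Atf3. Off chromosome 11, 2 of 253, Dusp4 and Atf3, were covered (0.791%, 0.217% to 2.84%). In sites of 2000 to under 4000 bp 5.92% of 997 starts (4.62% to 7.56%) lay in such a site, and 4.30% (3.16% to 5.83%) without chromosome 11. Within 1000 bp of a start, 4.59% of the bases of broad domains were H3K27me3-depleted, and beyond it 10.4% (2.86% and 6.99% without chromosome 11). In sites of 2000 to under 4000 bp the values were 6.64% and 9%. In broad domains Pcl3 coverage was 88.6% within and 89.8% beyond 1000 bp, and CpG density 6.52 and 4.33 per 100 bp.

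In domains with a single start, coverage by H3K27me3-depleted sites was 14% at 1500 to 2000 bp upstream. It fell by steps to 8.90%, 3.67% and 2.04% toward the start. Not every domain reached each bin, and these bins held 151, 187, 225 and 241 domains. The part of this change of domains in the fall was not tested. Downstream the coverage rose from 4.61% in the first 500 bp to 8.52% and then 9.89%. Without chromosome 11 it was 0.795% in the last 500 bp before the start (221 domains). At 1500 to 2000 bp upstream it was 10.7% there (136 domains). Pcl3 coverage in the same bins stayed between 82.9% and 94.4%. The centers of the 89 depleted sites in domains with a coding start lay a median of 1912 bp from it, with quartiles of 1292 and 3319.5 bp, and 34 of 89 (38.2%) were upstream. At Lhx1 the 5 sites lay 5572, 3222 and 1272 bp downstream and 2152 and 3778 bp upstream of the start and covered 64.8% of the domain. At Hoxb8 and Hoxb7 the 3 sites lay 4218, 2218 and 718 bp upstream of the Hoxb8 start. CpG density moved with the distance from the start, and its part in this arrangement was not tested.

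The placement differed from domain to domain. In the domain of Tbx2 the 2 sites lay at 69.9% and 94.7% of the width, 7698 and 11898 bp downstream of the start. At Dmrta2 they lay at the edges, at 4.03% and 96.0%, and at Hoxb5 at 29.6% and 70.1%, on both sides of the start. At Tbx3, a T-box factor of limb and heart, they lay 1828 bp upstream and 1348 bp downstream of the start and covered 47.2% of a domain that was 51.2% on Pcl3 sites. At Hic1 the site 2646 bp downstream lay wholly on a Pcl3 site and the one 2029.5 bp upstream over 36.7% of its bases. Single sites lay 3019.5 bp downstream of the Pax7 start (67.9% of the width), 2318 bp downstream of that of Hmx1 (35.0%) and 2112 bp upstream of that of Tbx1 (79.3%). Olig2 had its 2 sites upstream of the start, at 11.2% and 37.4%. A second domain at Wnt3, of 4300 bp and 35686 bp from the nearest coding start, had 77.9% of its bases in 2 sites.

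**Figure D5:**
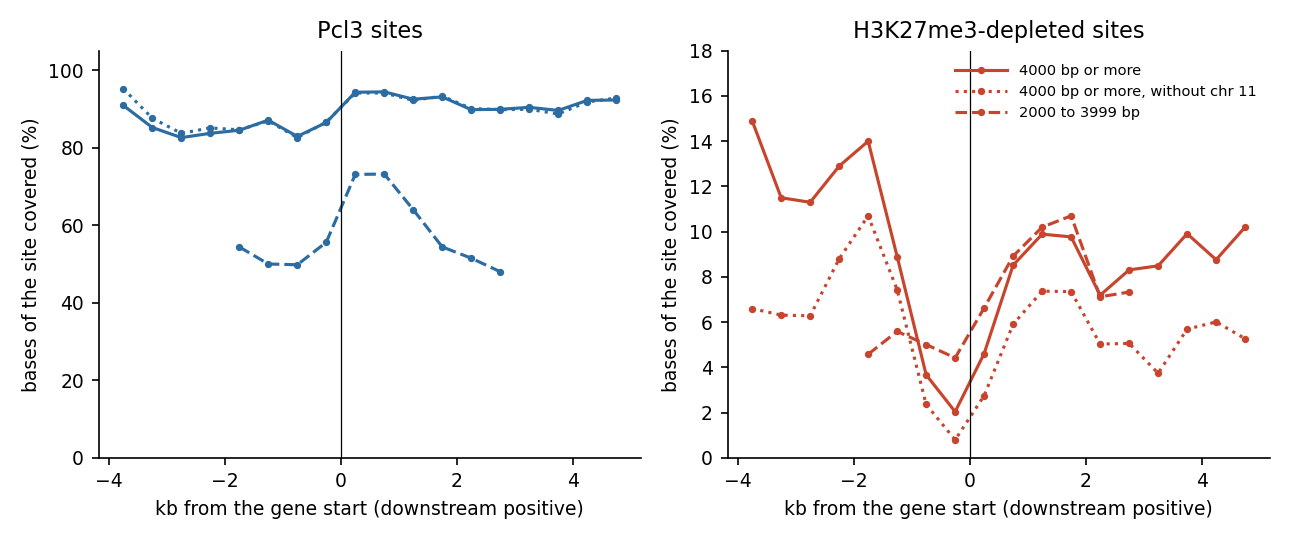
Share of bases of the site, in percent, covered by Pcl3 sites (left) and H3K27me3-depleted sites (right) in 500 bp bins around the coding gene start, for sites with 1 start. Bins farther from the start hold fewer sites, since not every site reaches them. Domains of 4000 bp or more are solid, or dotted without chromosome 11. Their H3K27me3-depleted line falls to 2.04% just upstream of the start (0.795% without chromosome 11). Their Pcl3 line stays between 82.6% and 94.4%, and reaches 95.2% without chromosome 11.

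Inside broad domains, H3K27me3-depleted bases lay on Pcl3 sites about as often as other bases. Of 161450 depleted bases 87.6% were on Pcl3 sites, against 86.5% of all bases of the same 83 domains, and without chromosome 11 the values were 86.0% and 85.0% (63 domains). Wholly on Pcl3 sites were 79 of 111 pairs (71.2%), and on no Pcl3 base 8. CpG density of the depleted bases had a median of 4.35 per 100 bp, and 51 of 111 were richer in CpG than the domain around them.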

How the data were processed

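ChIP-seq of 10 libraries (6 ChIP, 4 input) from mouse ESCs was described from 4 site lists. Per the submitters' notes and methods, the authors placed single-end reads on mm9 with Bowtie and retained those with a unique position. After scaling each pair of libraries to an equal background they applied a Skellam test to sliding windows, merged the windows that passed, and deposited every merged site with a p-value computed anew. These p-values were the only measured values. Read counts and library depths were not used here, so single-site precision is unknown. Repeated sequence is largely lost to unique alignment, and sites lie on a grid of 50 bp.

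Members were Suz12 sites of at least 4000 bp. Members and gene lists were chosen with earlier results of these data known, and the comparison by distance from gene starts was added after the data were seen. Named genes were the 12 widest domains, the 12 with the smallest H3K27me3-depleted p-values, the 4 without Pcl3 and the 6 widest with at least 90% of bases on Pcl3 sites, the 3 on either side of the width threshold, and the widest of each gene group. Some items that this rule selects are not reported here. Other genes were named after their values were seen. Overlaps were counted in bases, shares have Wilson intervals and medians order-statistic intervals (95%). Sites are not replicates. Genes and coordinates (1-based) came from GENCODE vM1 and sequences from the matching NCBIM37 genome, and 2245 of 22380 coding symbols were updated for the gene groups from a RefSeq list of another assembly. Symbols were counted once. Overlap functions were checked against simulated intervals. Intervals and overlaps were computed with numpy 2.4.6 and scipy 1.17.1 under Python 3.11.15, tables were read with pandas 2.3.3, and plots were drawn with matplotlib 3.10.9. Alternatives were other widths, p-values, overlap rules, joined sites, and leaving out chromosome 11 or repetitive domains.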

Additional observations from a re-analysis of the deposited data

How the results depend on the processing

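Of 58 values recomputed under another choice, 41 stayed within the 95% interval of the reported value and 17 moved. For counts and for the difference around gene starts the limit was 1.5 times the reported value. A change of direction could be recorded only for the difference around gene starts, which kept its direction. For shares of bases the interval took the domains as units. At a width of 6000 bp Pcl3 coverage was 93.5% of bases, 100% of domains shared bases with a Pcl3 site, 29.5% with an H3K27me3-depleted site, 94.4% of depleted bases lay on Pcl3 sites, 87.5% held a coding start and CpG density was 4.71 per 100 bp. At 3000 bp Pcl3 coverage was 83.5%, 70.4% held a coding start, CpG density was 5.12 and 55.6% of the genes of the 9 transcription factor groups had their start in a domain. Joining Suz12 sites under 1000 bp apart lowered Pcl3 coverage to 81.7%. With centers within 2000 bp, 85.3% of domains had a Pcl3 site and 19.1% an H3K27me3-depleted site, and with the center of the Pcl3 site inside the domain 90% had one. Counting starts of any coding transcript raised the share of domains with a start to 85.9%. With H3K27me3-depleted p-values of at most 1e-10 (201 sites), the share of domains with a site was 9.41%, against 2.32% of all Suz12 sites and 5.65% of sites of 2000 to under 4000 bp. The depleted share beyond 1000 bp of a start then exceeded that within it by 2.29 percentage points rather than 5.81. Leaving out chromosome 11 moved none of the 9 values so recomputed outside these limits. The shares of starts and of bases in H3K27me3-depleted sites were not among them. Without chromosome 11 these fell from 2.18% to 0.791% and from 8.05% to 5.56%. As 0 domains had over 25% of 25-mers recurring within 50000 bp, leaving out repetitive domains could move no value, and those values count among the 41. Of the 34 values of single gene groups 6 moved, all at 3000 bp: Hox 76.9%, other homeobox 70.9%, Sox 33.3%, basic helix-loop-helix 35%, potassium channel 8.51% and collagen 13.6%. No paired analysis was possible because Suz12 and H3K27me3 had 1 library per condition and no test was made. Depth sets which sites pass the authors' threshold, and it is unknown here.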

Other observations

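The domains that held no gene of any group named above included those of Skor1 (12600 bp) and Sim2 (6950 bp), other regulators of development. Their Pcl3 coverage was 90.5% and 100%. Also included were domains of the protocadherin genes Pcdh7 (6700 bp), Pcdh10 (6550 bp) and Pcdh17 (5900 bp), with Pcl3 coverage of 100%, 97.7% and 92.4%. These genes were picked after their values were seen. A domain of 6450 bp on chromosome 17 at AY036118 held 9.33 CpG per 100 bp, 91.5% of its bases on Pcl3 sites and no other Suz12 site within 1030600 bp. Recurring sequence was looked for only within 50000 bp on either side. Whether reads from copies elsewhere in the genome produced this domain was not tested, so it may not reflect binding there.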
